A study of Mus musculus with 12 samples.

Results

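Open chromatin far from annotated gene starts was followed in C2C12 cells, a mouse myoblast line that fuses into myotubes in culture. The members are 781 far-intergenic peaks of 38244 peaks in the table of the assay for transposase-accessible chromatin (ATAC), or 2.04%. They are the peaks that HOMER placed between genes, more than 200 kb from the nearest start in its annotation, outside named repeats and CpG islands, with a mean of at least 5 normalised tags over the 6 libraries. Of 13655 intergenic peaks, 1131 lay beyond 200 kb, 789 of those were outside repeats and CpG islands, and 781 had the required mean. These bounds use no difference between groups, but peaks listed in a single group are in the table through that group. The members were also chosen with earlier results of these data known.

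The ATAC libraries came from C2C12 cells, labelled with the genotype C3H, in 3 control cultures and 3 cultures that spent 24 hours in conditioned medium. That medium came from Colon-26 (C26), a colon carcinoma line of the mouse. The titles call the cells myotubes and another label calls them myoblasts. All 6 are 1 cell line, and beyond seeding in triplicate nothing says that the cultures were independent, so p-values measure the spread between these libraries. A separate set of 6 RNA libraries came from an unnamed muscle of C57BL/6 mice, 3 injected with PBS and 3 with 500000 Lewis lung carcinoma (LLC) cells, taken 22 days after injection. The 2 systems differ in tumour line, strain and tissue, so values from them are set side by side only.

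Most of the genome's regulatory elements are enhancers, which can act on genes far away by looping of the chromatin. Transposase cuts DNA that is not wrapped tightly around nucleosomes, so a peak marks a stretch of accessible DNA, often a bound promoter or enhancer. In gene deserts such elements are best known around developmental regulators, whose distant enhancers are used in particular tissues. The nearest start names a peak's place, not the gene that it acts on.

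The name "gene desert" held for HOMER's annotation and less well for a fuller one. Against the gene spans of RefSeq GRCm38.p6, the same build as the mm10 coordinates of the peaks, 751 of the 781 peaks had some gene, pseudogene or noncoding RNA within 200 kb. A protein-coding span lay within 200 kb of 225. Of all 781, 111 overlapped a span of any kind, 86 of them one of a long noncoding RNA and 22 a protein-coding one. The other 670 were outside every span. The median gap was 36.9 kb to any span and 264.4 kb to a protein-coding one. Distances to spans, here and below, run from the centre of the peak and not from its edge. Peaks overlapping spans of long noncoding RNAs and peaks outside every span had similar median levels, at 23 and 21.4 tags.

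In that annotation, 9 of the peaks shared bases with 10 promoter windows of 300 bases, running from 250 bases before to 50 after a gene's start, and none covered a miRNA hairpin. All of these genes are predicted genes with Gm names. Of the 10 windows, 6 lie wholly within a peak. The 4 printed here are 3 of those, shown for the widest peak (Gm13470) and for windows with AP-1 matches (Gm39473 and Gm28516), and Gm44812, most of which lies in a peak that was called higher on the scaled values described further on, but not on the deposited ones. They are from RefSeq GRCm38.p6, 5′ to 3′ on the gene's own strand, with capitals marking every match to a searched motif. The windows are Gm13470 at chr2:46442856-46443155 (minus strand), Gm39473 at chr12:74825050-74825349 (plus strand), Gm28516 at chr8:92024192-92024491 (plus strand) and Gm44812 at chr7:70574213-70574512 (plus strand).
Gm13470: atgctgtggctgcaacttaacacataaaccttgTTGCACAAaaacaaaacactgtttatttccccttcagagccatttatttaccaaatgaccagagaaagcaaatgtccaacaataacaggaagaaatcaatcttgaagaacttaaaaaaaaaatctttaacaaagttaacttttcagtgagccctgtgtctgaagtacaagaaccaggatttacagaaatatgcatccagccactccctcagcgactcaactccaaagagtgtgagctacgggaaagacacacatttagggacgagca
Gm39473: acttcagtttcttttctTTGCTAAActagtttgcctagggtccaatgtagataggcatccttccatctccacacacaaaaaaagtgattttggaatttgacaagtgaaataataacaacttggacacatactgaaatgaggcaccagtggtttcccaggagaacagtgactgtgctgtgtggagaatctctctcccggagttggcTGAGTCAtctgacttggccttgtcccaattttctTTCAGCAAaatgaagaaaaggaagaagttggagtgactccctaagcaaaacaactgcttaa
Gm28516: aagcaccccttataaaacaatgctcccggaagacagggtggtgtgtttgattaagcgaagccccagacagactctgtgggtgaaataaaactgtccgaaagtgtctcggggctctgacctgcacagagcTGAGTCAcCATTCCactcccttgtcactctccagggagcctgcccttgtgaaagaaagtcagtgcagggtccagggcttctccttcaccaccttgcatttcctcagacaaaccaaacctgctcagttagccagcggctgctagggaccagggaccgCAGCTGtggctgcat
Gm44812: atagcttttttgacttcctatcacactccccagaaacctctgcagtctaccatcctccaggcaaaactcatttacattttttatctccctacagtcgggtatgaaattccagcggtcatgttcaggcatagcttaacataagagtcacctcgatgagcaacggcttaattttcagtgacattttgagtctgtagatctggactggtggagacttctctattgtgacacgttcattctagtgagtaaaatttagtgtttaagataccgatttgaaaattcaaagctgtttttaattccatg

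The Gm13470 window sits in the widest of the 781 peaks, chr2:46442146-46444061, and holds 1 match for C/EBP. That peak held 205.1, 88.4 and 142.4 tags in control libraries 1 to 3 and 96.8, 85.7 and 92.6 in C26 libraries 1 to 3. Its groups overlapped, and it was called on neither scale (adjusted p = 0.215 deposited and 0.743 scaled). The Gm39473 window holds 1 match for AP-1, the Fos and Jun family, and 2 for C/EBP. The Gm28516 window, 222680 bp from the start of Irx3 in HOMER's annotation, holds 1 match each for AP-1, the E-box of myogenic factors and TEAD. The Gm44812 window, 259 bases of which lie in a peak 207744 bp from Nr2f2, holds none of the motifs searched.

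Both strands were searched for AP-1 (TGANTCA), the myogenic E-box (CAGCTG), TEAD (GGAATG), RUNX (TGTGGTTT), the glucocorticoid receptor (ACANNNTGT), STAT (TTCCNGGAA), C/EBP (TTGCNNAA) and, by longer motifs, NF-kB, NFI, CTCF and MEF2. Among the 10 windows, C/EBP was found in 5, AP-1 in 3, TEAD in 3, the E-box in 2 and MEF2 in 1. The Gm14064 windows at chr2:137663143-137663442 and chr2:137663161-137663460 overlap and hold the same C/EBP and TEAD bases, which are counted for both. Of all 32851 RefSeq promoter windows of the same length, 10.8% hold the C/EBP motif, 7.81% the AP-1 motif, 14.7% the TEAD motif, 16.3% the E-box and 3.69% the MEF2 motif. The other 6 motifs were in none of the 10 windows and in 0.0365% (NFI) to 6.85% (glucocorticoid receptor) of all windows. No match in the 4 printed windows overlapped another, and a match describes letters only. The Gm40659 window shares just 2 bases with its peak, which fell on both scales and is described below under 1700016G22Rik, and is not printed for that reason. Its matches for AP-1, the E-box and MEF2 are in the counts above, though they lie outside the peak, and include the only MEF2 match.

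The 781 peaks lay on 20 chromosomes, with the most on chromosomes 13 (72), 3 (67), 4 (66) and 10 (64). Their distance to the nearest start in HOMER's annotation ran from 200149 bp to 1711 kb, with a median of 303.9 kb, and 132 were beyond 500 kb and 10 beyond 1000 kb. Widths ran from 166 to 1916 bp (median 425), and mean tags from 5.005 to 212.1 (median 21.3). Just inside the distance bound were peaks near D630013N20Rik (200149 bp, mean 12.6 tags) and Flrt2 (200230 bp, 73.9 tags), and just outside were peaks near Cadps (199872 bp, 46.1 tags) and 1810053B23Rik (199817 bp, 12.2 tags). At the bound on the mean, peaks near Fat4 (5.005) and Nt5c1b (5.532) were inside, and peaks near Gm12724 (4.827) and 1700019M22Rik (2.432) were outside.

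Far-intergenic peaks were lower and narrower than peaks at large. Median tags over the 781 were 36.2, 16.2 and 22.2 in control libraries 1 to 3 and 18.3, 17.4 and 20.6 in C26 libraries 1 to 3. Over all 37358 peaks with a mean of at least 5, the same medians were 50.9, 23.6, 32.1, 24.6, 22.9 and 26.6. In every library the far-intergenic median was the lower one. Median width was 425 bp against 522 bp. The authors' lists of peaks for single libraries held all 781 in at least 3 lists, and 360 (46.1%) in all 6, against 60.7% of all tested peaks.

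Library totals were 10.1 to 18.2 M tags, of which 12.0% to 27.0% fell in peaks, and 50638 to 87298 read ends per library fell in the 781. Control library 1 stood apart, with 27.0% of its tags in peaks against 17.9% and 13.1% in the other controls and 12.0% to 13.5% in C26 libraries. The deposited values are scaled to all tags of a library. On that scale control 1 had the highest median level, and the median log2 difference between C26 and control over all tested peaks was -0.54. Scaling each library by the median of ratios, which sets the typical peak level, moved that median by 0.52 to -0.02. The main counts are therefore given on both scales and other counts name their scale, and neither scale can show whether accessibility changed at all peaks at once. Of 16 muscle markers, 5 (Myod1, Des, Tnnt3, Ttn and Chrna1) had a peak within 1000 bp of the start, with summed tags of 158.6 to 331.1 in controls and 130.3 to 140.9 after C26 medium, and Myog, Ckm, Acta1 and Myh3 were among the 11 with none. None of 8 markers of epithelium and carcinoma, such as Epcam and Krt8, had one, nor did any of 13 markers of blood, endothelium, adipocytes or neurons.

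The share of tags in tested peaks that fell in the 781 was higher after C26 medium. It was 1.44%, 1.41% and 1.40% in control libraries 1 to 3 and 1.55%, 1.56% and 1.58% in C26 libraries 1 to 3. The means were 1.42% ± 0.024 (SD, n = 3) and 1.56% ± 0.013 (SD, n = 3), and the groups did not overlap. The share within peaks does not depend on how many tags fell outside peaks. It was higher after C26 medium in the nearest classes too. Intergenic peaks 50 to 200 kb from a start held 6.28% to 6.44% in controls and 7.03% to 7.20% in C26 libraries, and intronic peaks 22.8% to 23.2% and 24.7% to 25.4%.

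**Figure D1:**
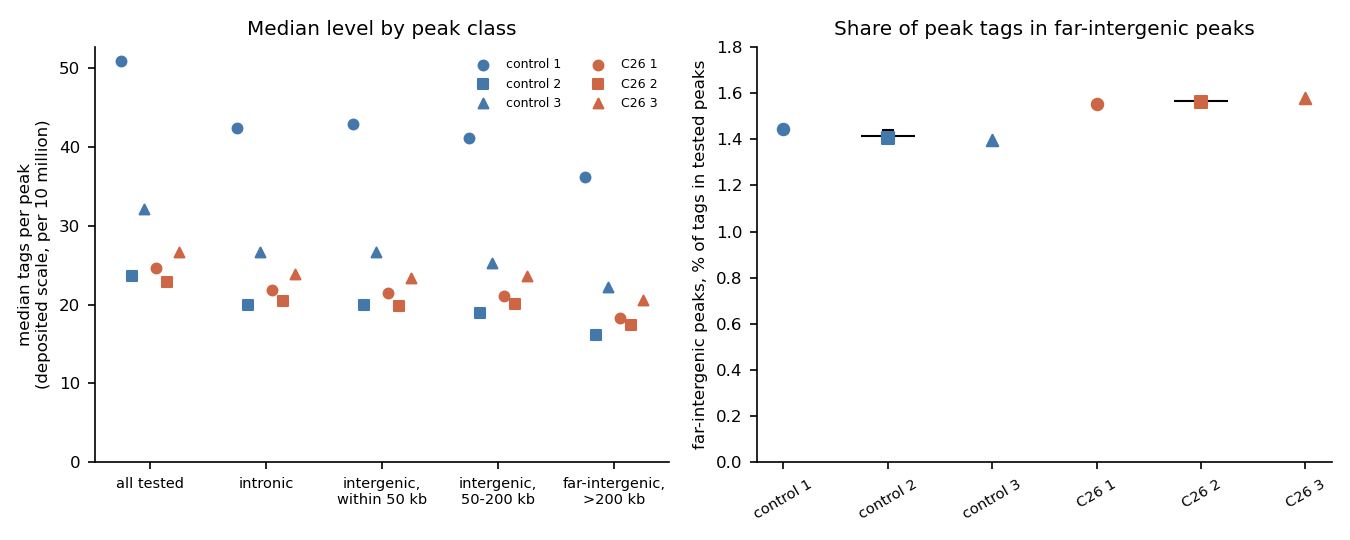
Left, the median normalised tags per peak (deposited scale, per 10 M tags) in each of the 6 libraries for 5 classes of peak, with circles, squares and triangles for replicates 1 to 3. Right, the percentage of tags in tested peaks that fell in the 781 far-intergenic peaks in each library, with the mean and SD of each group in black. Control 1 has the highest median in every class, and the 3 C26 libraries lie above the 3 controls in share, at 1.55% to 1.58% against 1.40% to 1.44%.

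Far-intergenic peaks both rose and fell after C26 medium. On the deposited scale, with limma on log2(value + 1) fitted over all tested peaks, 33 of the 781 were higher (4.23%) and 27 lower (3.46%) at an adjusted p under 0.05. Over all tested peaks 1.15% were called higher and 1.88% lower. On the median-of-ratios scale 199 were higher (25.5%) and 79 lower (10.1%), against 17.1% and 12.7% of all tested peaks. All 33 and all 27 were also called in the same direction on that scale. The median log2 difference of the 781 was -0.40 deposited and 0.11 scaled, beside -0.54 and -0.02 over all tested peaks. Leaving out a single library moved the deposited counts to between 11 and 77 higher and between 3 and 321 lower. The extremes were 77 higher without control 1, 11 without C26 library 3, 321 lower without control 2 and 3 without C26 library 2, and the scaled counts stayed at 163 to 182 higher and 61 to 79 lower.

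The next class of peaks towards genes had a similar median and a smaller share of deposited calls. Intergenic peaks 50 to 200 kb from a start (3087 peaks) had medians of -0.39 deposited and 0.13 scaled, with 1.94% higher and 2.95% lower on the deposited scale and 27.2% and 9.56% on the other. Intergenic peaks within 50 kb (6329 peaks) had 1.49% and 2.42%, then 21.3% and 10.6%. Intronic peaks (10800 peaks) had 1.20% and 1.96%, then 22.7% and 8.27%. Scaled log2 differences of at least 1 were seen in 84 far-intergenic peaks (10.8%), against 10.4% of the 50 to 200 kb class, 7.08% of intronic peaks and 5.69% of all. Those of -1 or below were seen in 14 (1.79%), against 1.68%, 0.898% and 0.79%. No test was made between the classes.

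**Figure D2:**
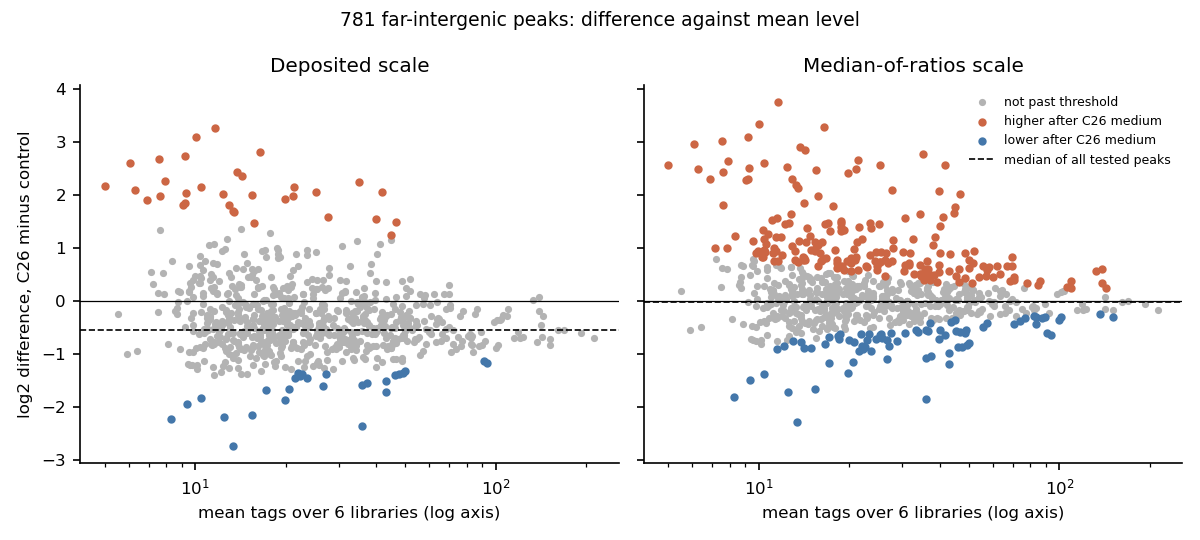
The log2 difference between C26 and control libraries (y axis) against mean tags over the 6 libraries (x axis, log scale) for each of the 781 far-intergenic peaks, on the deposited scale (left) and the median-of-ratios scale (right). Orange and blue points passed an adjusted p of 0.05, numbering 33 and 27 on the left and 199 and 79 on the right, and the dashed line is the median of all tested peaks, at -0.54 and -0.02.

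The 33 peaks that rose on the deposited scale were mostly low in control cultures, which choosing peaks that rose partly fixes. They had a median control mean of 4.91 tags and a median C26 mean of 21.03, and lay near 31 genes on 14 chromosomes. The 27 that fell on that scale had median means of 35.0 and 12.0 and lay near 24 genes on 13 chromosomes. Of the 33, 25 were in the peak lists of all C26 libraries and of no control library. Of the 27, 7 were in lists of control libraries only and 9 in all 6. Peaks listed in 1 group only had to differ between the groups, so these counts are descriptions. The 8 largest rises were all in C26 lists only. They entered through the C26 libraries, which their p-values do not allow for. The 7 falls in control lists only are all among the 8 largest falls. Those 7 entered through the control libraries, and their p-values do not allow for that either. In all, 39 of the 781 (4.99%) were listed in C26 libraries only and 18 (2.30%) in controls only, against 2.32% and 1.71% of all tested peaks.

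The largest rise was at chr8:127634856-127635223, 335427 bp from Pard3, which encodes a cell polarity protein. That peak held 3.13, 0 and 1.98 tags in control libraries 1 to 3 and 22.6, 18.7 and 23.1 in C26 libraries 1 to 3. The log2 difference was 3.28 ± 0.50 (SE, adjusted p = 1.2e-07). In RefSeq the peak lies inside the long noncoding RNA Gm32478 and 22753 bp from a protein-coding span. Every C26 library stood above every control, and the same was true at the next 7 peaks in order of size. Choosing peaks by the size of their rise largely fixes this. Among all 781 peaks the groups overlapped at 518 on the deposited values, and the share over all tested peaks is not given here. At chr5:12655298-12655692, near Sema3d, a secreted semaphorin that guides growing axons and vessels, controls held 0, 1.69 and 2.97 tags and C26 libraries 19.1, 12.8 and 23.6. That difference was 3.11 ± 0.51 (SE, adjusted p = 1.5e-06).

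The peak at chr13:16661364-16661785, 638151 bp from the pseudogene B230303A05Rik, held 4.91, 2.03 and 3.46 tags in controls and 30.0, 27.1 and 31.04 in C26 libraries. Its C26 mean of 29.4 ± 2.07 (SD, n = 3) was the highest of these 8 rises. Near Dkk2, a secreted modulator of Wnt signalling, the peak at chr3:131846426-131846950 held 0.89, 1.35 and 2.97 tags in controls and 13.3, 17.0 and 19.8 in C26 libraries. The peak at chr7:71045469-71045916, 678946 bp from Nr2f2, a nuclear receptor of the COUP-TF family, held 0.89, 2.03 and 0.99 and then 11.3, 11.8 and 18.4. Controls at both of these were near the level of a few read ends.

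Near Gmds, an enzyme that makes the fucose donor GDP-fucose, the peak at chr13:32555676-32555932 held 0.89, 0.68 and 1.48 tags in controls and 10.9, 10.4 and 12.1 in C26 libraries. At chr1:141990999-141991354, 1334774 bp from the noncoding RNA 4930590L20Rik, controls held 6.25, 2.70 and 2.47 tags and C26 libraries 23.4, 21.5 and 26.1. The nearest RefSeq span of any kind lay 463864 bp from it, the widest such gap among the 16 peaks named for their rise or fall. Of the 15 outside every span, the peak near 1700016G22Rik had the narrowest gap, at 537 bp from its centre. At chr10:15249065-15249323, near Nmbr, the receptor of neuromedin B, controls held 10.7, 2.03 and 1.98 tags and C26 libraries 18.7, 22.9 and 29.4. Control 1 was the highest control there, and still below every C26 library. Log2 differences of these 6 peaks ran from 2.36 to 2.82, with adjusted p from 1.2e-06 to 0.000366.

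The largest fall was at chr1:113676359-113676855, 1259689 bp from the noncoding RNA Gm32810. That peak held 36.2, 20.3 and 15.3 tags in control libraries 1 to 3 and 5.07, 1.74 and 1.65 in C26 libraries, a log2 difference of -2.73 ± 0.48 (SE, adjusted p = 7.9e-06). On the scaled values, where control 1 no longer stands out, controls held 20.04, 23.8 and 13.2 and C26 libraries 6.03, 2.22 and 1.85. At chr5:80700792-80701362, near Adgrl3, an adhesion receptor of the latrophilin family, controls held 80.0, 48.3 and 53.9 tags and C26 libraries 8.19, 9.72 and 15.7. It was the highest of the 8 largest falls in controls, and its difference was -2.35 ± 0.40 (SE, adjusted p = 5.6e-06).

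At chr13:79400102-79400430, 1201393 bp from Nr2f1, the other COUP-TF nuclear receptor, controls held 14.3, 14.9 and 13.4 tags and C26 libraries 1.56, 1.74 and 3.85. Another peak near Nr2f1, at chr13:79442990-79443464, held 54.1, 12.5 and 28.7 and then 22.2, 18.4 and 19.5, and its groups overlapped. The first of these neighbours fell (-2.23 ± 0.50 SE, adjusted p = 0.00168) and the second did not pass the test (-0.42 ± 0.41 SE, adjusted p = 0.446). The difference between the 2 was not tested.

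The falls near Adamts5 and Adamts6, which encode secreted metalloproteases of the matrix, were not shared by all peaks near such genes. At chr16:86148256-86148794, near Adamts5, controls held 40.2, 16.2 and 21.8 tags and C26 libraries 5.85, 3.82 and 4.67. At chr13:104540974-104541350, near Adamts6, they held 17.9, 10.8 and 16.8 and then 5.07, 4.51 and 1.10. A second peak near Adamts5 also fell, from a mean of 26.9 to 7.36 tags (log2 difference -1.67). In each of these 3 the highest C26 library was below the lowest control. The other 5 of the 6 peaks near Adamts6 had scaled differences above 0, with 1 called higher (0.64, adjusted p = 0.000284). The third peak near Adamts5 was called on neither scale. Of 2 near Adamts9, 1 was called higher on the scaled values (0.49, adjusted p = 0.00188) and the other was at -0.03.

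The remaining large falls were near Zfat, a zinc finger gene, the noncoding RNA 1700016G22Rik and Plekhb2. At chr15:67901059-67901344, near Zfat, controls held 29.9, 15.2 and 17.8 tags and C26 libraries 6.24, 3.82 and 1.92. At chr13:5257978-5258553, near 1700016G22Rik, they held 37.1, 20.9 and 37.6 and then 7.41, 9.02 and 7.14. At chr1:35380749-35381212, near Plekhb2, they held 21.5, 14.2 and 14.8 and then 3.51, 3.12 and 5.49. The 8 largest falls ran from -1.83 to -2.73 on the log2 scale, with adjusted p from 5.6e-06 to 0.0101. All of them but the peak near Adgrl3 were in control lists only. Their p-values do not allow for that entry through the control libraries. None of the 16 peaks changed direction under the alternatives tried for them, and 6 of the falls lost the call in some fits that left out 1 library.

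**Figure D3:**
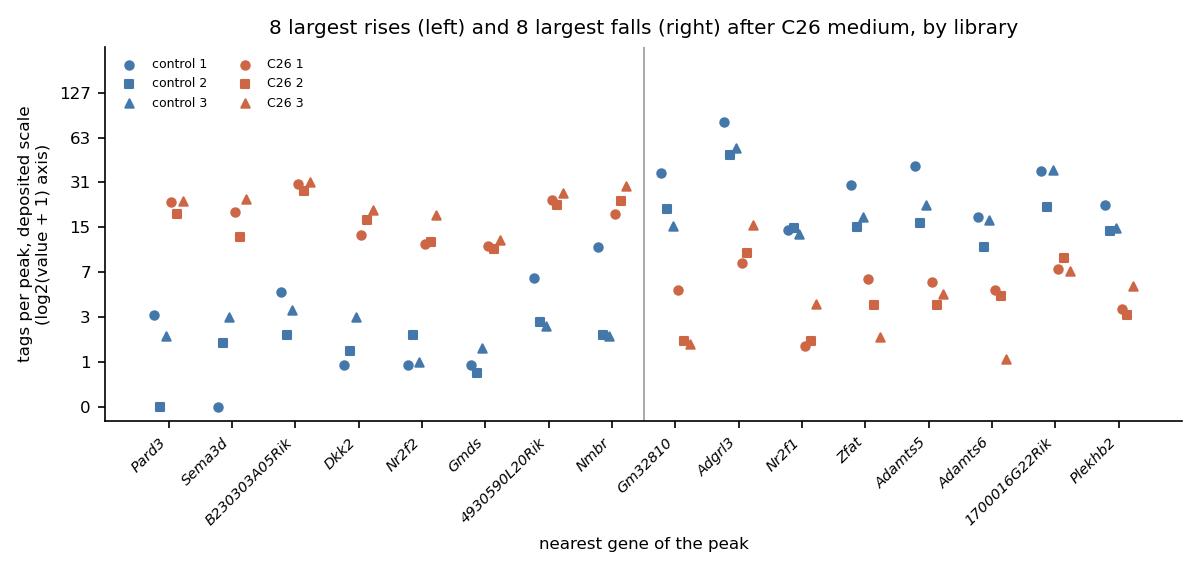
Normalised tags in each library (y axis, log2(value + 1) spacing, labelled in tags on the deposited scale) for the 8 far-intergenic peaks with the largest rises (left of the line) and the 8 with the largest falls (right), each named by its nearest gene. Blue symbols are control libraries and orange symbols C26 libraries, with circles, squares and triangles for replicates 1 to 3. In all 16 peaks the 2 groups do not overlap, which choosing peaks by their difference largely fixes.

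The highest far-intergenic peaks had small differences on the scaled values. The highest of all, 227444 bp from Zeb1, a repressor known for its part in epithelial to mesenchymal transition, held 330.6, 187.0 and 278.3 tags in controls and 154.9, 152.7 and 169.2 in C26 libraries. On the scaled values it held 183.0, 219.4 and 239.1 and then 184.2, 194.6 and 189.9, so that its groups overlapped there (scaled log2 difference -0.17 ± 0.09 SE, adjusted p = 0.156). Peaks near 1810053B23Rik, Cep162, a centriole protein, Osr1, a transcription factor of embryonic mesenchyme, and Rps24, a ribosomal protein, had scaled differences from -0.17 to 0.00, and none was called on either scale. The peak near Prl5a1, a prolactin family gene, held 146.4, 153.7 and 164.8 scaled tags in controls and 127.6, 135.3 and 118.1 in C26 libraries. Its scaled difference was -0.29 ± 0.09 (SE, adjusted p = 0.0117), a call that the deposited scale did not make (adjusted p = 0.11).

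On the deposited scale raised peaks were mostly found among the lower ones. There the third with the lowest mean tags had 23 higher and 6 lower, those in the middle 5 and 10, and the highest 5 and 11. On the scaled values these counts were 76 and 13, 55 and 27, and 68 and 39. Higher calls were thus spread over all levels there, and lower calls were more frequent among higher peaks. Calls by level over all tested peaks are not given here, so whether this is particular to far-intergenic peaks was not tested. By distance, 17 of 379 peaks at 200 to 300 kb were higher and 9 lower on the deposited scale, 8 and 13 of 270 at 300 to 500 kb, and 8 and 5 of 132 beyond 500 kb. After scaling these were 108 and 39 (28.5% and 10.3%), 55 and 30 (20.4% and 11.1%), and 36 and 10 (27.3% and 7.58%). Over all tested peaks the shares were 1.15% and 1.88% on the deposited scale and 17.1% and 12.7% after scaling. No test was made between distances. The farthest peak, 1711353 bp from Cdh20, a cadherin, held 24.6, 12.2 and 18.8 tags in controls and 8.97, 9.02 and 10.2 in C26 libraries, and was called on neither scale (adjusted p = 0.171 and 0.316).

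Peaks that share a nearest gene were not all called in the same direction. The 781 had 340 nearest genes, 167 of them with 1 peak and 40 with at least 5 (270 peaks in all). On the scaled values 10 of those 40 genes had peaks called in both directions, 18 only higher, 7 only lower and 5 none. On that scale 25.5% of the 781 were called higher and 10.1% lower, beside 17.1% and 12.7% of all tested peaks. Counts for genes with as many other peaks are not given here, so whether these differ was not tested. The gene with the most was Tbl1xr1, part of the NCoR and SMRT corepressor complexes, with 13 peaks 239.1 to 808.1 kb before its start. Scaled differences there ran from -0.98 to 0.92, with 2 peaks called higher and 3 lower (none and 1 on the deposited scale). Its highest peak, at chr3:21760971-21762326, held 86.6, 90.7 and 94.3 scaled tags in controls and 73.8, 79.1 and 65.0 in C26 libraries (-0.32 ± 0.10 SE, adjusted p = 0.0153).

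The noncoding RNA Gm20125 had 11 peaks, of which 5 were called higher and none lower on the scaled values (1 and none deposited), with scaled differences from -0.52 to 2.67. Its highest peak, at chr10:17347739-17348277, held 93.0, 95.1 and 99.8 scaled tags in controls and 122.1, 107.5 and 114.4 in C26 libraries (0.25 ± 0.09 SE, adjusted p = 0.0355), while on the deposited values its difference was -0.28 with overlapping groups. The sign at that peak thus depended on the scale. Of 9 peaks near Zfp608, a zinc finger gene, 2 were higher and 1 lower on the scaled values, of 9 near Mettl15, a methyltransferase of mitochondrial ribosomal RNA, 3 and 1, and of 9 near Efnb2, the ligand ephrin-B2, none and 1. Of 8 near the noncoding RNA 1700019E08Rik, 1 was higher and 3 lower. On the deposited scale Mettl15 had 1 and 1, Efnb2 none and 1, and Zfp608 and 1700019E08Rik none. Over all 781, 131 neighbouring pairs lay within 10 kb of each other, and 89 (67.9%) had scaled differences of the same sign. Of single peaks among the 781, 57.5% had a scaled difference above 0. The share for neighbouring pairs of other peaks is not given here.

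**Figure D4:**
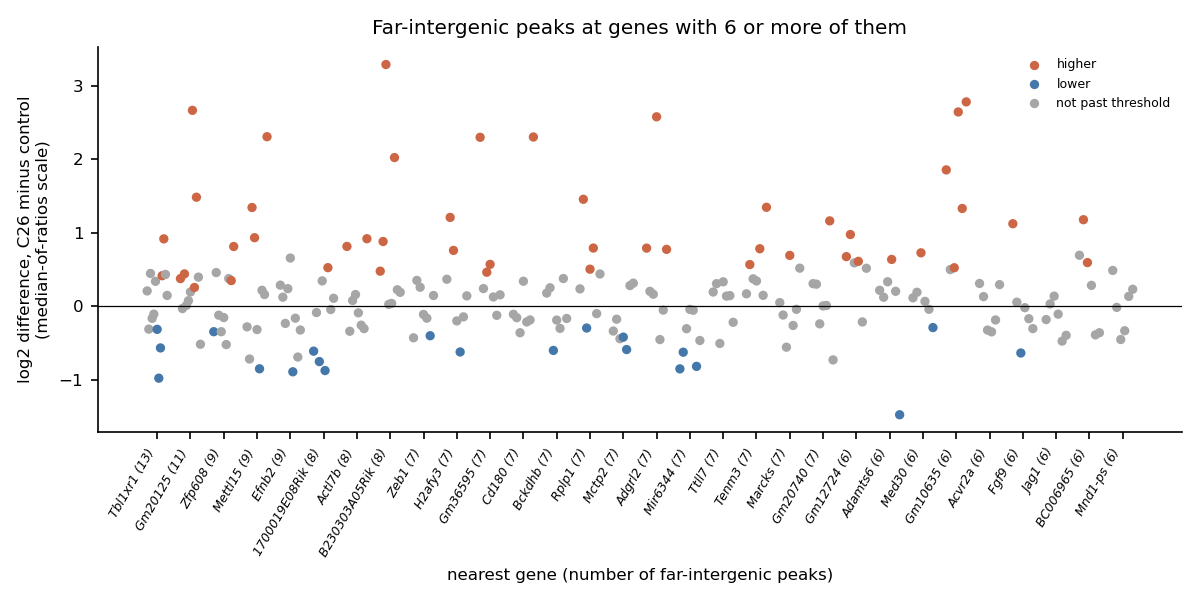
Scaled log2 differences between C26 and control libraries for each far-intergenic peak (point) at the 30 nearest genes with 6 or more of them, ordered by number of peaks and, within a gene, by position. Orange and blue points passed an adjusted p of 0.05, and several genes hold both colours, among them Tbl1xr1 with 2 higher and 3 lower of 13.

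Nearest genes were also grouped by lists of symbols, which are not complete. The list of developmental transcription factors held 18 nearest genes with 46 peaks, the noncoding Sox2ot among them, and left out others such as Zeb1, En1 and Osr1. On the deposited scale 2 of the 46 were higher and 2 lower, beside 1.15% and 1.88% of all tested peaks. Of the 781, 4.23% and 3.46% were. On the scaled values 14 (30.4%) and 5 (10.9%) were, beside 17.1% and 12.7% of all tested peaks and 25.5% and 10.1% of the 781. Besides the peaks near Nr2f2 and Nr2f1 given above, a peak near Irx1, a homeobox factor, held 1.79, 1.35 and 1.98 tags in controls and 9.75, 8.33 and 14.6 in C26 libraries (log2 difference 2.11, adjusted p = 0.00629). A peak near Runx1t1, a corepressor of the ETO family, held 99.2, 49.6 and 68.2 and then 26.5, 25.7 and 30.8 (-1.30, adjusted p = 0.0287). The 3 peaks near Irx3, another homeobox factor, had scaled differences of 0.76 to 0.95, and 2 of them were called higher. The other one holds the Gm28516 window. Of 5 near Prdm1, the repressor Blimp1, 3 were called higher on the scaled values, and of 5 near Nr2f1, none higher and 2 lower. The 3 peaks near Klf4, 3 near Tbx18 and 3 near Tshz3 held no call on either scale.

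The peak that holds most of the Gm44812 window is 1 of 3 near Nr2f2. It held 7.92, 6.74 and 8.92 scaled tags in controls and 24.1, 9.29 and 26.8 in C26 libraries (1.13 ± 0.30 SE, adjusted p = 0.00314). C26 library 2 was well below the other C26 libraries and just above the highest control. On the deposited values the groups overlapped, and the peak was not called (adjusted p = 0.293).

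The list of secreted signals and their receptors held 9 nearest genes with 22 peaks, and left out Dkk2, Hgf and Acvr2a among others. Of the 22, 3 were higher and 1 lower on the deposited scale, beside 1.15% and 1.88% of all tested peaks. Of the 781, 4.23% and 3.46% were. On the scaled values 11 (50%) and 2 (9.09%) of the 22 were, beside 17.1% and 12.7% of all tested peaks. Of the 781, 25.5% and 10.1% were. Besides Sema3d, a peak near Fzd1, a Wnt receptor, held 10.3, 4.39 and 9.39 tags in controls and 33.2, 30.2 and 31.9 in C26 libraries (1.93, adjusted p = 0.00142). A peak near Fgf10, a growth factor that mesenchyme sends to epithelium, held 4.47, 6.41 and 6.92 and then 21.1, 18.4 and 23.6 (1.68, adjusted p = 0.0144). The deposited fall within the list was near Fzd8, another Wnt receptor, with 48.3, 22.6 and 25.2 and then 17.95, 7.29 and 10.7 (-1.35, adjusted p = 0.045). All 4 peaks near Bmper, which binds bone morphogenetic proteins, had scaled differences above 0, from 0.36 to 1.60, and 3 of them were called higher there, while none was called on the deposited scale.

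The list of adhesion and guidance genes held 14 nearest genes with 41 peaks, and left out Tenm3 and Fat4 among others. Of the 41, 1 was higher and 3 lower on the deposited scale, beside 1.15% and 1.88% of all tested peaks. Of the 781, 4.23% and 3.46% were. After scaling 8 (19.5%) and 4 (9.76%) of the 41 were, close to the 17.1% and 12.7% of all tested peaks. Of the 781, 25.5% and 10.1% were. The deposited rise within the list was near Adgrl2, a latrophilin like Adgrl3, where a peak held 14.3, 3.04 and 14.3 tags in controls and 41.0, 36.8 and 42.3 in C26 libraries (2.06, adjusted p = 0.00028). Deposited falls were near Adgrl3, Adgrg6, an adhesion receptor needed for myelination, with 75.5, 36.5 and 52.9 tags and then 17.2, 17.7 and 15.9 (-1.58, adjusted p = 0.00685), and Efnb2, with 46.0, 19.2 and 34.6 and then 9.36, 11.5 and 13.2 (-1.40, adjusted p = 0.0335). The other peak near Adgrl3 was called higher on the scaled values (0.35, adjusted p = 0.029), so peaks near that gene passed in both directions. The 4 peaks near Cdh18, a cadherin, held no call on either scale.

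In muscle of mice with LLC tumours, no nearest gene passed the test. Of the 340 nearest genes, 270 were in the RNA table and 151 had a mean of at least 1 FPKM and were tested. With limma on log2(FPKM + 1) over 12981 genes, 0 of the 151 were called, and 0.0% of all genes were. At an unadjusted p under 0.05 there were 19 (12.6%) among the 151 and 991 (7.63%) over all genes. With quantile normalisation or a mean of at least 5 FPKM, limma called 1 gene in all, and it was no nearest gene. The 270 had a lower median level in muscle than genes at large, 1.66 FPKM against 2.98 over all 20194 genes in the table.

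The nearest gene with the smallest p was Adamts9, a matrix metalloprotease, with 1.06, 1.29 and 0.763 FPKM in PBS mice 1 to 3 and 2.49, 3.70 and 4.29 in LLC mice 1 to 3. Its log2 difference was 1.13 ± 0.21 (SE, adjusted p = 0.217). Irx3 had 0.829, 1.74 and 1.29 FPKM in PBS mice and 3.56, 2.99 and 3.26 in LLC mice (0.92 ± 0.18 SE, adjusted p = 0.259). In both genes every LLC mouse was above every PBS mouse, and neither passed the adjusted threshold. Btbd3 had 7.64, 5.91 and 3.89 and then 11.7, 11.4 and 13.4 FPKM (adjusted p = 0.328), Efnb2 2.77, 2.58 and 2.48 and then 6.87, 4.31 and 4.47 (adjusted p = 0.366), and Nnt, which makes NADPH in mitochondria, 30.8, 25.5 and 25.2 and then 44.5, 39.5 and 36.2 (adjusted p = 0.386). Among nearest genes the highest levels were those of the ribosomal protein genes Rplp1 (474 ± 223 and 510 ± 88 FPKM, SD, n = 3 each) and Rps24 (178 ± 65 and 194 ± 23). Ccng1 (187 ± 59 and 157 ± 14), Col3a1, a fibrillar collagen (156 ± 57 and 76.5 ± 19), and Psmd7, a proteasome subunit (68.8 ± 8.6 and 93.5 ± 9.2), followed, and their adjusted p were 0.53 or above. In tissue, fewer cells of a type and less RNA per cell cannot be told apart.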

How the data were processed

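Peaks were annotated in mm10 with HOMER (annotatePeaks.pl), and the deposited ATAC values are signal, tags per peak that the authors, per the file headers, scaled to a library total of 10 M. For RNA the authors deposited FPKM from HOMER (analyzeRepeats.pl), counted over exons on both strands in mm10, per the file headers, so antisense and overlapping genes cannot be separated. HISAT2, HOMER, DESeq2, Bowtie2 and MACS2 are named in the submitters' processing notes; how duplicates, the transposase offset and peak thresholds were handled is not given. Tests used log2(value + 1), and this understates changes of low peaks.

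All 37358 peaks with a mean of at least 5, and 12981 genes averaging 1 FPKM or more, were tested by limma 3.58.1 under R 4.3.3, using lmFit, then eBayes with a trend. Tests were two-sided, and p-values were adjusted by Benjamini-Hochberg with a threshold of 0.05. Every ATAC value (100% of 229464) fell within 0.1 read ends of a whole number of read ends, each worth 0.5 tags. On those counts the quasi-likelihood test of edgeR 4.0.16 called 31 of the 781 peaks higher and 36 lower. Both ends of a pair usually fall in 1 peak, so read ends are not independent. Libraries of 1 group differed in their share of tags in peaks, and no library was a copy of another. Same-numbered ATAC libraries did not deviate together (correlations -0.011, 0.008 and -0.017 over peaks), which does not show whether cultures were handled in pairs. In the RNA the same-number correlations over genes were -0.091, 0.599 and -0.599, while PBS 1 with LLC 3 had 0.635. The numbers were not used as pairs in the main tests.

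The fit was tested on simulated data over 37332 peaks. It recovered 80 of 100 peaks changed by 1 and 100 of 100 changed by 2 on the log2 scale, with 8 false calls. For RNA it recovered 1 of 98 and 47 of 100 genes. No RNA read counts were given, so those simulated were made from FPKM and length at an assumed depth. The RNA shares hold for that depth only. No shift between libraries was simulated, so the shares recovered among peaks do not carry over to the deposited scale, where control libraries differed in level. On that scale the smallest called differences among far-intergenic peaks were 1.249 for rises and -1.128 for falls. A change of 1 was thus smaller than any called there.

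Peaks named are the 8 largest rises and 8 largest falls past the threshold, the 6 highest, the 6 farthest, the highest at the 6 genes with most peaks, and those beside the bounds. Genes named are the 6 with most peaks, those of 3 families by symbol with 3 or more peaks, and in RNA the 5 highest and the 5 with the smallest p. The other called peaks of those families were named after their values were seen. The members and lists were chosen with earlier results of these data known. Alternatives were other scalings, filters, bounds and tools, and leaving out each library. Motifs in whole peaks were not analysed here.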

Additional observations from a re-analysis of the deposited data

How the results depend on the processing

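The counts of 33 higher and 27 lower far-intergenic peaks on the deposited scale depend on the processing. They were 8 and 12 at a mean of at least 20 tags, 27 and 9 with no filter, 39 and 67 with no trend, 31 and 36 with edgeR, and 41 and 69 at an adjusted p under 0.1. Scaling moved them to 199 and 79 by median of ratios, 174 and 106 by quantiles, and 200 and 82 by TMM in edgeR. With the replicate number as a block they were 33 and 26, and 200 and 78 when scaled as well. Leaving out 1 library gave 11 to 77 and 3 to 321 (scaled 163 to 182 and 61 to 79). Without control 3 they were 18 and 5, without C26 library 1 12 and 5, and the cause was not tested. Other bounds gave 58 and 70 beyond 100 kb, 8 and 5 beyond 500 kb, and 42 and 35 with repeats and CpG islands kept. The median log2 difference, -0.40 deposited, was 0.1081 by median of ratios (0.1081 with the block too), 0.1069 by TMM, and -0.6806 to 0.1205 when 1 library was left out on either scale. The far-intergenic median minus that of the 50 to 200 kb class, -0.0128, was -0.0358 at a mean of at least 20, -0.0564 by quantiles, -0.0312 in edgeR, -0.0304 with TMM, 0.0244 beyond 500 kb, and -0.0398 to -0.0083 when 1 library was left out. The share of peak tags was higher by 0.149 percentage points after C26 medium, by 0.1125 at a mean of at least 20, 0.4496 beyond 100 kb, 0.0301 beyond 500 kb, 0.217 with repeats kept, and 0.1401 to 0.1628 without 1 library.

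Of 31 named peaks, none of the 16 called ones changed sign over the alternatives tried, and 15 of their leave-one-out fits lost the call, all at falls (near Nr2f1, Zfat, Adamts5, Adamts6, 1700016G22Rik and Plekhb2). Among peaks not called, log2 differences below 0 turned above 0 by quantiles near 1810053B23Rik (0.039), Cep162 (0.085), Osr1 (0.081), 1700019E08Rik (0.040), 4930404A05Rik (0.133), Gm20125 (0.340) and Zfp608 (0.444). By median of ratios they did so at the farther Nr2f1 peak (0.102), 4930404A05Rik (0.174), Gm20125 (0.253) and Zfp608 (0.347). Without control 1 they did so at the farther Nr2f1 peak (0.069) and near Zfp608 (0.009), and without control 2 that Nr2f1 peak was at -0.946. The count of nearest genes called in RNA was 0 in every alternative. At 3 libraries a group and these depths, a peak of a few tags can show a large rise and no further fall.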

Other observations

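Several groups of far-intergenic peaks had differences on 1 side of 0, and these were picked after their values were seen. The 6 peaks near the noncoding RNA Gm10635, at chr9:79201801-79317449, all had scaled log2 differences above 0, from 0.50 to 2.78, and 5 were called higher. The peak nearest to its start, 202145 bp away, held 26.4, 5.74 and 8.40 tags in control libraries 1 to 3 and 64.8, 51.02 and 54.7 in C26 libraries 1 to 3 (deposited log2 difference 2.26, adjusted p = 1.5e-05). The peak 286034 bp away held 1.34, 2.36 and 2.47 and then 16.4, 10.1 and 14.8 (2.27, adjusted p = 0.0015). Between these, a peak 265925 bp away held 11.2, 10.1 and 15.3 and then 22.6, 19.8 and 24.5, and it passed on the scaled values only (1.33, adjusted p = 3.1e-05).

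All 8 peaks near B230303A05Rik had scaled differences above 0, from 0.02 to 3.29, and 4 were called higher. Besides the peak given above, 1 at chr13:16717164-16717629 held 41.6, 19.2 and 15.3 tags in controls and 71.4, 55.2 and 77.2 in C26 libraries (log2 difference 1.5, adjusted p = 0.00903). Its neighbour at chr13:16715613-16715988 held 71.5, 31.7 and 44.0 and then 38.2, 29.5 and 31.3, with a scaled difference of 0.04 (adjusted p = 0.878). All 7 peaks near Mir6344, at chr1:81661046-81819161, had scaled differences below 0, from -0.86 to -0.05, and 3 were called lower, 2 of them on the deposited scale too. All 7 peaks assigned to Tenm3 and all 5 near Trib2, a pseudokinase gene, had scaled differences above 0, with 3 and 4 called higher. In RefSeq GRCm38.p6 the 7 lie inside the span of Tenm3 itself, although HOMER called them intergenic. On the deposited scale 2 of the 6 near Gm10635, 5 of the 8 near B230303A05Rik, 4 of the 7 at Tenm3 and 2 of the 5 near Trib2 were below 0, while all 7 near Mir6344 were.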
